A study of Mus musculus with 36 samples.

Results

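Genes that make, sense and break down prostaglandin E2 (PGE2) were followed in pancreatic islets of mice with and without Gαz on 2 diets. The 10 genes were listed by name, with no use of their values. They are Ptger1, Ptger2, Ptger3 and Ptger4, which encode the receptors EP1 to EP4, the cyclooxygenase genes Ptgs1 and Ptgs2, the PGE synthase genes Ptges, Ptges2 and Ptges3, and Hpgd, which encodes the enzyme that inactivates PGE2. Of these, 9 had a transcript cluster (the array's unit for a gene) that carried their symbol and no other, out of 14860 genes measured in that way. Ptgs1 was not analysed here.

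PGE2 is made from arachidonic acid, which phospholipases free from membranes. Cyclooxygenases turn it into PGH2, and the PGE synthases turn PGH2 into PGE2, which leaves the cell and acts on receptors nearby. EP2 and EP4 couple to Gs and raise cAMP, EP1 raises cytosolic calcium, and EP3 couples to inhibitory G proteins and lowers cAMP. In the beta cell, cAMP amplifies glucose-stimulated insulin secretion, and EP3 is known as an upstream receptor of Gαz, the inhibitory G protein alpha subunit that Gnaz encodes.

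Hand-picked islets of 18 male C57BL/6N mice were each measured on 1 exon array, whose probes lie in the exons of known genes. WT mice and mice lacking 1 protein-coding exon of Gnaz in the whole body (KO) were fed a control diet (CD, 10 kcal% fat) or a high-fat diet (HFD, 45 kcal% fat) for 16 weeks from 11 weeks of age. The groups held 5 WT and 5 KO mice on CD, and 4 WT and 4 KO mice on HFD. Sources differ on age at isolation: it follows from the diet in the methods, is 6 months in the labels and 37 to 40 weeks in the deposited protocol. Arrays are named by group and by the islet number in their titles. The study's methods left out 1 KO HFD array, taken here to be KO HFD 11, so tests are over 17 arrays. Ranges for KO HFD islets are over the tested arrays, and values of KO HFD 11 are given where it is named. Values are log2 signals after robust multiarray average (RMA) normalization, so a difference of 1 is a doubling of signal, and levels of different genes are not compared. Comparisons are named by what differs: KO CD against WT CD islets is the CD genotype comparison, KO HFD against WT HFD the HFD genotype comparison, WT HFD against WT CD the WT diet comparison and KO HFD against KO CD the KO diet comparison. The interaction is the genotype difference on HFD minus that on CD.

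Gnaz read 11.02 to 11.26 in the 9 WT arrays and 10.03 to 10.56 in the 9 KO arrays, with no overlap. The mean of 12 beta cell markers was 12.55 to 12.70 in the 3 tested KO HFD arrays, below its values of 12.74 to 12.80 in WT CD, 12.74 to 13.00 in KO CD and 12.77 to 12.90 in WT HFD islets. On these markers KO HFD 11 read 12.76, within the WT CD range. KO HFD arrays were lower as a whole, with a median log2 fold change over the 14860 genes of −0.13 against WT HFD and −0.18 against KO CD islets, whereas it was 0.041 in the CD genotype and 0.012 in the WT diet comparison. With every array centred on its own median, the KO HFD values became 0.041 and 0.074. The means of 14 acinar enzyme genes, from the tissue the islets were picked from, ran from 13.35 to 13.68 in WT CD, 13.10 to 13.54 in KO CD, 12.69 to 13.16 in WT HFD and 13.43 to 13.83 in KO HFD islets. On this list KO HFD 11 read 13.27. In the HFD genotype comparison 5 of 12 beta cell and 3 of 5 alpha cell markers fell, and 1 alpha cell marker rose. There 3 of 6 delta and PP cell and 9 of 12 endothelial markers fell, where 28.1% of all genes fell. In the KO diet comparison 4, 4, 6 and 7 markers of these lists fell, in that order, where 44.6% of all genes fell. The part of these shifts in the values of KO HFD islets below was not tested. In bulk islets, fewer cells of a type and less RNA per cell cannot be told apart.

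The promoter windows of Ptgs2, Ptges and Ptger3 are printed as those of the inducible cyclooxygenase, the synthase that acts after it and the receptor known to act through Gαz. Each runs from 250 bases before to 50 bases after an annotated start in RefSeq (GRCm38.p6), 5′ to 3′ on the gene's strand. For Ptges and Ptger3 that start lies inside the span annotated for the gene, not at its outer end. Capitals mark matches on either strand to a cAMP response element half-site (TGACG), a GC box (GGGCGG) or an E box (CACGTG).
Ptgs2 (chr1:150099781-150100080, plus strand): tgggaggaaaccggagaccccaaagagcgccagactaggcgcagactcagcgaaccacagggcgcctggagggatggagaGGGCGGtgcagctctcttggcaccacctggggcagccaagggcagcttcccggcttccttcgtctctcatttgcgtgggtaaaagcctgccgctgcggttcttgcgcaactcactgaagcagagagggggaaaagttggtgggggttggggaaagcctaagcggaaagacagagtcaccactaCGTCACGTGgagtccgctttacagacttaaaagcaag
Ptges (chr2:30903248-30903547, minus strand): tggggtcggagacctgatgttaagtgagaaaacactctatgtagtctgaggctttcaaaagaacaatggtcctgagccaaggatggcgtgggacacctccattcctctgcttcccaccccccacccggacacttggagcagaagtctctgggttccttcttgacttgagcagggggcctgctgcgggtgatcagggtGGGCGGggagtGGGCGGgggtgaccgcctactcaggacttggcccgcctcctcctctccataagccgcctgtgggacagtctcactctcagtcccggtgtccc
Ptger3 (chr3:157566626-157566925, plus strand): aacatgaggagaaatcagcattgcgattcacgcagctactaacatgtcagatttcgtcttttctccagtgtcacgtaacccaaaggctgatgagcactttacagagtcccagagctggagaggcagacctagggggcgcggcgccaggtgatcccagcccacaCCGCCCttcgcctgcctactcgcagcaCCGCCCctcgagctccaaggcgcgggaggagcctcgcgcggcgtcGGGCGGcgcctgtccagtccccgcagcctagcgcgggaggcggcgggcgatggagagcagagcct
Counted from the annotated start as base 1, the Ptgs2 window held 1 CRE half-site at base 14 that overlaps 1 E box at base 17, and it held 1 GC box beginning 170 bases before the start. The Ptges window held 2 GC boxes, beginning 53 and 42 bases before its start, and the Ptger3 window held 3 GC boxes. Neither the Ptges nor the Ptger3 window held the other motifs. Of 32851 windows of the same length, 20.8% held a CRE half-site, 35.7% a GC box and 7.15% an E box. A match describes the letters only. As background, the CRE and E box of the mouse Ptgs2 promoter are known to serve its induction by inflammatory and cAMP signals, and Egr1 is known to act through GC boxes of mouse Ptges.

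**Figure D1:**
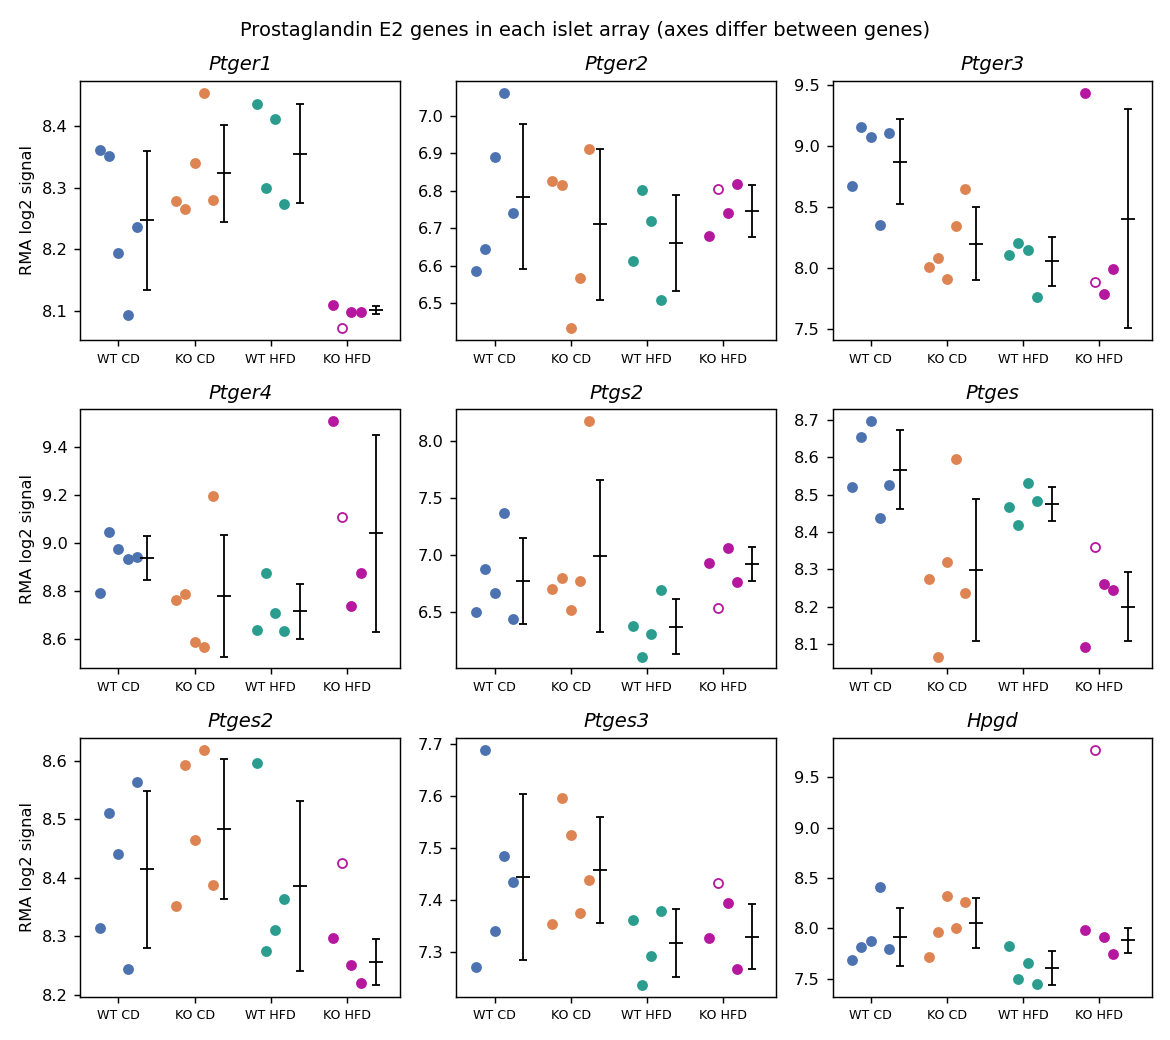
Log2 signal (RMA) of the 9 genes in each array, grouped as WT CD, KO CD, WT HFD and KO HFD, with axes that differ between genes. Filled points are the 17 arrays tested, the open point is KO HFD 11, and bars give the mean and SD of the filled points. Ptger3 in KO HFD 10 (9.44), Ptgs2 in KO CD 13 (8.18) and Hpgd in KO HFD 11 (9.77) lie apart from their groups.

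No PGE2 gene passed the test with genotype on CD or with HFD feeding in WT islets, and the changes that passed in KO HFD islets were small. In the CD genotype comparison 0 of 9 passed an adjusted p of 0.05 in limma, where 0.155% of all genes did, and 2 had an unadjusted p under 0.05. In the WT diet comparison 0 of 9 passed, against 0.188% of all genes, and 2 had an unadjusted p under 0.05. In the HFD genotype comparison Ptger1 and Ptges fell, 2 of 9, where 28.1% of all genes fell and 29.4% were called in either direction. In the KO diet comparison Ptger1 and Ptges2 fell, 2 of 9, where 44.6% of all genes fell and 46.1% were called in either direction. In the interaction of genotype and diet 1 of 9 passed, Ptger1 with a negative term, where 31.2% of all genes passed with a negative term and 32.6% with either sign. The comparisons share groups, so their values are set side by side and are not separate evidence.

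The median log2 fold change of the 9 genes was 0.086 in the HFD genotype comparison, where that of all genes was −0.13. It was −0.098 in the KO diet comparison against −0.18 for all genes, and −0.13 in the WT diet comparison against 0.012. Groups did not overlap for 3 of 9 genes in the HFD genotype comparison (38.7% of all genes), for 2 in the KO diet comparison (41.7%), for 1 in the WT diet comparison (4.93%) and for 0 in the CD genotype comparison (3.39%). When each array was centred on its median, calls over all genes split into 731 higher and 795 lower in the HFD genotype comparison, against 196 and 4176 as deposited. The same step gave 3265 higher and 1135 lower in the KO diet comparison, against 215 and 6632. None of the 4 falls in Ptger1, Ptges and Ptges2 kept its call after that centring.

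**Figure D2:**
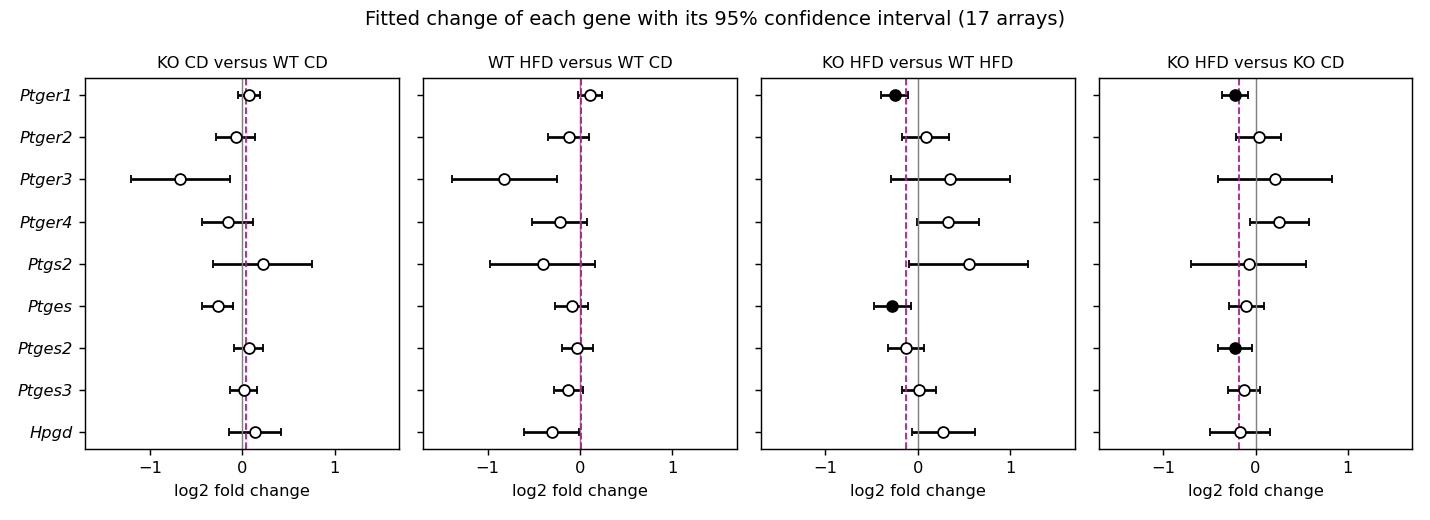
Fitted log2 fold change of each gene in the 4 comparisons, over 17 arrays, with its 95% confidence interval; filled points passed an adjusted p of 0.05 and open points did not. The solid line is 0 and the dashed line the median of all genes, which lies at −0.13 and −0.18 in the 2 comparisons with KO HFD islets.

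Ptger3, the EP3 receptor gene, was the receptor that differed most between the groups on their means, and no comparison of it passed the test. In WT CD islets it read 8.67, 9.16, 9.08, 8.36 and 9.11. In WT HFD islets it read 8.10, 8.20, 8.14 and 7.76, all below every WT CD array. KO CD islets read 8.01, 8.08, 7.91, 8.34 and 8.65, which overlaps both. KO HFD islets read 9.44 in array 10, the highest of all 18, and 7.78 and 7.99 in arrays 17 and 18, with 7.88 in array 11. The log2 fold change was −0.82 in the WT diet comparison (SE 0.27, 1.77-fold lower, adjusted p = 0.32) and −0.68 in the CD genotype comparison (SE 0.25, 1.60-fold lower, adjusted p = 0.25).

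Ptger3 passed in the WT diet comparison in 3 alternative fits. Without KO HFD 10, it fell by 0.82 in the WT diet comparison with a SE of 0.17 and an adjusted p of 0.032. The adjusted p was 0.046 when only these 2 groups were fitted and 0.039 with array weights. The difference in the CD genotype comparison kept an adjusted p of 0.10 without KO HFD 10. The interaction of genotype and diet was 1.03 (SE 0.40, adjusted p = 0.057), with 0.51 (SE 0.28, adjusted p = 0.17) without KO HFD 10. It passed without KO HFD 17 (1.34, adjusted p = 0.026), without KO HFD 18 (1.23, adjusted p = 0.044), without WT CD 14 (1.16, adjusted p = 0.039) and without KO CD 13 (1.14, adjusted p = 0.038). The HFD genotype comparison gave 0.35 (SE 0.31, adjusted p = 0.42), which turned to −0.16 without KO HFD 10.

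Acinar enzyme genes moved with Ptger3. Of the 14, 8 fell in the WT diet comparison, where 25 of all 14860 genes fell. In the HFD genotype comparison 13 rose, where 196 of all 14860 genes rose. The acinar mean was highest, at 13.83, in KO HFD 10. Within groups, deviations of Ptger3 from its group means followed those of the acinar mean over 17 arrays (Pearson r = 0.77, permutation p = 0.0023, adjusted over 81 relations 0.087; Spearman rho = 0.81, permutation p = 0.0013, adjusted 0.053). Without the 2 arrays farthest on the acinar axis, KO CD 13 and KO HFD 10, r was 0.65. The acinar mean did not overlap between WT CD and WT HFD islets, or between WT HFD and KO HFD islets. In the comparisons of those groups, a fit with the acinar mean as a covariate cannot tell it apart from the group. With the acinar mean as a covariate, the log2 fold change of Ptger3 was 0.37 in the WT diet comparison (adjusted p = 1.0), −0.84 in the HFD genotype comparison (adjusted p = 0.13) and −0.087 in the CD genotype comparison (adjusted p = 0.88). The genes whose deviations over the 17 arrays were most like those of Ptger3 were Vipr2 (r = 0.96), Bmp7 (0.96), Erp27 (0.95), Tc2n (0.95) and Vtn (0.95). Vipr2 encodes a receptor for vasoactive intestinal peptide, Bmp7 a bone morphogenetic protein and Erp27 a protein of the endoplasmic reticulum.

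**Figure D3:**
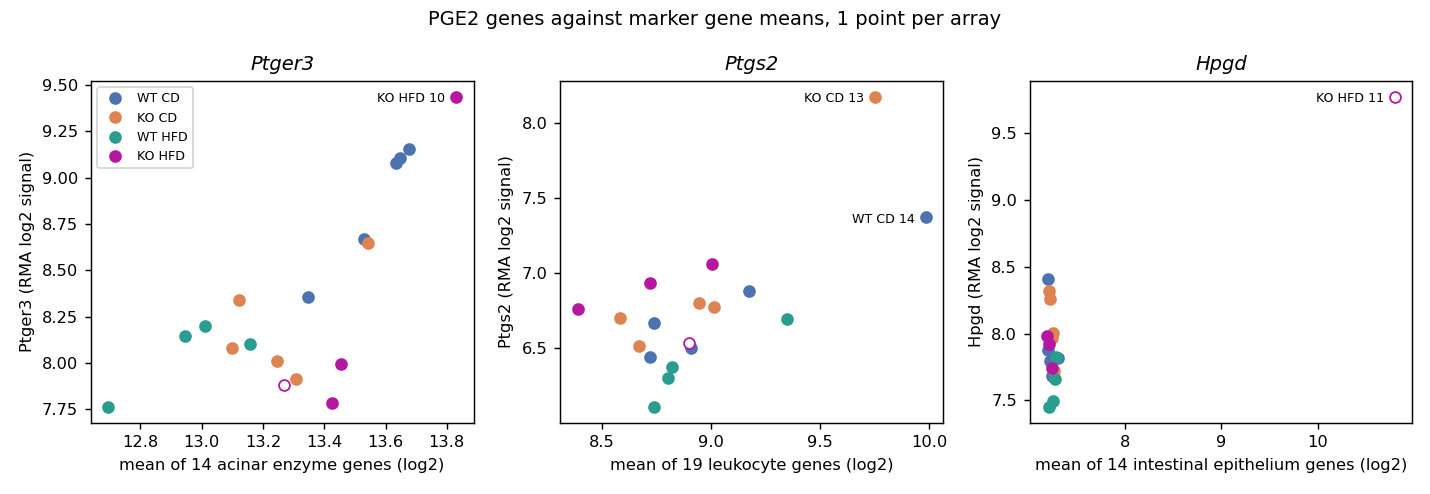
Each point is 1 of the 18 arrays, with the log2 signal of a gene against the mean log2 signal of a marker list: Ptger3 against 14 acinar enzyme genes, Ptgs2 against 19 leukocyte genes and Hpgd against 14 intestinal epithelium genes. KO HFD 10 is highest on both axes of the first panel, KO CD 13 and WT CD 14 are highest in the second, and KO HFD 11 (open) stands alone in the third at 10.80 against 7.20 to 7.31.

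Ptger4, the gene of the cAMP-raising receptor EP4, read 8.79, 9.04, 8.98, 8.93 and 8.94 in WT CD and 8.64, 8.88, 8.71 and 8.64 in WT HFD islets. KO CD islets read 8.76, 8.79, 8.59, 8.57 and 9.20, and KO HFD islets 9.51, 8.74 and 8.88, with 9.11 in array 11. The highest KO CD array was 13 and the highest KO HFD array was 10, and all groups overlapped. The HFD genotype comparison gave 0.32 on the log2 scale (SE 0.16, adjusted p = 0.13), the KO diet comparison 0.26 (SE 0.15, adjusted p = 0.18) and the interaction 0.48 (SE 0.21, adjusted p = 0.081). After median centring the KO diet comparison value was 0.51 (adjusted p = 0.025) and the interaction 0.72 (adjusted p = 0.048), so that Ptger4 and not Ptger1 was the gene called there. Without KO CD 13 the same comparisons passed at adjusted p = 0.038 and 0.022. Without KO HFD 10 the values were 0.092 in the HFD genotype comparison, 0.026 in the KO diet comparison and 0.25 for the interaction (adjusted p = 0.28). With the acinar mean as a covariate they were −0.21, −0.0051 and −0.31, where that mean did not overlap between WT HFD and KO HFD islets.

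Ptger1, the gene of the calcium-mobilizing receptor EP1, was lower in KO HFD islets than in both groups next to it, by a small amount. It read 8.11, 8.10 and 8.10 in KO HFD islets, and 8.07 in array 11. WT HFD islets read 8.43, 8.30, 8.41 and 8.27, and KO CD islets 8.28, 8.26, 8.34, 8.45 and 8.28, so that KO HFD overlapped with neither. WT CD islets read 8.36, 8.35, 8.19, 8.09 and 8.24, of which the lowest, array 14, lay just below the 3 tested KO HFD arrays. The log2 fold change was −0.25 in the HFD genotype comparison (SE 0.068, 1.19-fold lower, adjusted p = 0.013), −0.22 in the KO diet comparison (SE 0.065, adjusted p = 0.012) and −0.33 for the interaction (SE 0.089, adjusted p = 0.013), and over all 18 arrays each of these passed. After median centring these values were −0.083 (adjusted p = 0.42), 0.029 and −0.092 (adjusted p = 0.48). With the acinar mean as a covariate the first was −0.33 with an adjusted p of 0.090.

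Ptger2, the gene of the other Gs-coupled receptor, EP2, was dim and did not separate the groups. It read 6.59 to 7.06 in WT CD, 6.43 to 6.91 in KO CD, 6.51 to 6.80 in WT HFD and 6.68 to 6.82 in KO HFD islets. Its largest log2 fold change among the 4 comparisons was −0.12, in the WT diet comparison (95% confidence interval −0.35 to 0.10, adjusted p = 0.80). Ptger2, Ptgs2 and Ptges3 had means below 7.51, the 95th percentile of 712 olfactory receptor genes that islets are not known to use, and the other 6 genes lay above it. Differences in dim genes can be compressed on this scale.

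Ptgs2 encodes cyclooxygenase 2, the inducible enzyme that starts prostanoid synthesis, and its promoter window is the one with the CRE half-site and E box. It read 6.50, 6.88, 6.67, 7.37 and 6.44 in WT CD, and 6.70, 6.80, 6.52, 6.77 and 8.18 in KO CD islets. WT HFD islets read 6.37, 6.10, 6.30 and 6.69, all below the KO HFD values of 6.93, 7.06 and 6.76. KO HFD 11 read 6.53, within the WT HFD range. KO CD 13 and WT CD 14 were the 2 highest of all arrays. The log2 fold change was 0.55 in the HFD genotype comparison (SE 0.31, 1.46-fold higher, adjusted p = 0.19), −0.40 in the WT diet comparison (SE 0.27, adjusted p = 0.73) and 0.22 in the CD genotype comparison (SE 0.25, adjusted p = 0.69).

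In the HFD genotype comparison, Ptgs2 passed the test in the fits that left out KO CD 13. The adjusted p was 0.034 without KO CD 13, 0.0083 without KO CD 13 and WT CD 14, and 0.027 with only the 2 groups fitted. Over all 18 arrays the value was 0.45 (SE 0.28, adjusted p = 0.26). In the CD genotype comparison the value was −0.075 without KO CD 13.

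Leukocyte genes moved with Ptgs2 across arrays. The mean of 19 leukocyte genes, of 22 listed, ran from 8.72 to 9.98 in WT CD, 8.58 to 9.75 in KO CD, 8.74 to 9.35 in WT HFD and 8.39 to 9.01 in KO HFD islets, with the 2 highest values in WT CD 14 and KO CD 13. Within groups, deviations of Ptgs2 followed those of the leukocyte mean (r = 0.89, permutation p = 4e-05, adjusted over 81 relations 0.0032; rho = 0.85, permutation p = 5e-05, adjusted 0.0041), and r was 0.82 without those 2 arrays. This was the only one of the 81 relations between 9 genes and 9 marker lists to pass after adjustment. Ptgs2 also followed the means of 14 stellate and fibroblast genes (r = 0.80, permutation p = 0.0071, adjusted 0.14) and 8 duct genes (r = 0.70, permutation p = 0.0032, adjusted 0.087). WT CD 14 and KO CD 13 were also the 2 highest on the stellate and fibroblast mean, and without them that r was 0.46. With the leukocyte mean as a covariate, Ptgs2 rose by 0.76 in the HFD genotype comparison (SE 0.15, adjusted p = 0.0028). The genes most like Ptgs2 in their deviations were Lgals9, Inpp5d, Serpinb6b, Cd84 and Cnn2, each with r = 0.94. Inpp5d encodes the phosphatase SHIP1 of blood cells and Cd84 a surface receptor of leukocytes. Of 22 immediate early and inflammatory genes, 1 rose in the HFD genotype comparison and 0 fell, with a median log2 fold change of 0.20. Over all 14860 genes 196 rose and 28.1% fell there, with a median of −0.13.

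Ptges encodes microsomal PGE synthase 1, which acts downstream of cyclooxygenase 2, and it read lower in KO than in WT islets on both diets, with a call on HFD only. WT CD islets read 8.52, 8.65, 8.70, 8.44 and 8.53, and KO CD islets 8.27, 8.07, 8.32, 8.59 and 8.24, where array 12 lay among the WT values. WT HFD islets read 8.47, 8.42, 8.53 and 8.48 and KO HFD islets 8.09, 8.26 and 8.24, with no overlap, and KO HFD 11, at 8.36, was also below the WT HFD range. The log2 fold change was −0.27 in the CD genotype comparison (SE 0.078, 95% confidence interval −0.43 to −0.10, adjusted p = 0.18) and −0.27 in the HFD genotype comparison (SE 0.095, 95% confidence interval −0.48 to −0.074, adjusted p = 0.039). The interaction was −0.0061 (SE 0.12, 95% confidence interval −0.27 to 0.25), so a different genotype effect on the 2 diets was not detectable with these arrays. The call on HFD was lost over all 18 arrays (adjusted p = 0.067), without any 1 of WT HFD 7, WT HFD 9, WT HFD 16, KO HFD 10, KO HFD 17 or KO HFD 18 (adjusted p = 0.061 to 0.14) and after median centring (−0.11, adjusted p = 0.49).

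Ptges2, the gene of microsomal PGE synthase 2, fell in the KO diet comparison by 0.23 on the log2 scale (SE 0.087, adjusted p = 0.042). KO CD islets read 8.35, 8.59, 8.46, 8.62 and 8.39 and KO HFD islets 8.30, 8.25 and 8.22, with no overlap, while KO HFD 11 read 8.42, inside the KO CD range. Over all 18 arrays the value was −0.18 (adjusted p = 0.078), and after median centring it was 0.023. The call was also lost without any 1 of WT CD 6, KO CD 2, KO CD 3, KO CD 12, KO HFD 10, KO HFD 17 or KO HFD 18 (adjusted p = 0.051 to 0.12). WT CD islets read 8.24 to 8.56 and WT HFD islets 8.28 to 8.60. Ptges3 encodes the cytosolic PGE synthase, also known as p23, a cochaperone of Hsp90. It read 7.27 to 7.69 in WT CD, 7.36 to 7.60 in KO CD, 7.24 to 7.38 in WT HFD and 7.27 to 7.39 in KO HFD islets, with 7.43 in array 11. Its log2 fold changes in the 4 comparisons lay between −0.13 and 0.014.

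Hpgd encodes 15-hydroxyprostaglandin dehydrogenase, which starts the breakdown of PGE2, and its highest value was in the array that the tests leave out. It read 9.77 in KO HFD 11 against 7.45 to 8.41 in the other 17. WT CD islets read 7.68, 7.81, 7.88, 8.41 and 7.79, and KO CD islets 7.72, 7.97, 8.32, 8.00 and 8.26. WT HFD islets read 7.82, 7.50, 7.66 and 7.45, and the other KO HFD islets 7.98, 7.92 and 7.75, so that all groups overlapped. Over 17 arrays the log2 fold change was 0.28 in the HFD genotype comparison (SE 0.16, adjusted p = 0.21), −0.31 in the WT diet comparison (SE 0.14, adjusted p = 0.56) and −0.17 in the KO diet comparison (SE 0.15, adjusted p = 0.39). With KO HFD 11 the first was 0.75 (SE 0.32, adjusted p = 0.096) and the last turned to 0.30 (SE 0.30, adjusted p = 0.45).

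Intestinal epithelium genes stood out in the same array. Of 15 such genes, listed after the value of Hpgd had been seen, 14 were measured, and each was higher in KO HFD 11 than in every other array. Their mean was 10.80 there and 7.20 to 7.31 elsewhere. Fabp2, the intestinal fatty acid binding protein gene, read 12.78 against 5.74 to 6.28, and Cdh17, which encodes an intestinal cadherin, read 10.55 against 5.15 to 5.44. Cdx1 exceeded the other arrays least, at 8.53 against 8.15 to 8.50. The part of these genes in the Hpgd value was not tested.

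The genes also differed in how much they varied between mice of 1 group. The SD within groups was 0.45 for both Ptger3 and Ptgs2, and 98.5% of all genes had a smaller one. The median over all genes was 0.11. Hpgd (0.23) and Ptger4 (0.23) exceeded 89.8% and 89.5% of genes. Ptger1 (0.085) exceeded only 24.4%, so that its calls rested on small differences with small spread. Ptges (0.13), Ptges2 (0.12) and Ptges3 (0.11) lay near the middle.

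The wider arachidonic acid pathway was read from 5 lists of 66 genes, of which 52 were measured, and its calls were falls in KO HFD islets. In limma 0 of 52 passed in the CD genotype comparison (6 at an unadjusted p under 0.05), and 0 of 52 passed in the WT diet comparison (1 at an unadjusted p under 0.05). In the HFD genotype comparison 9 fell and 0 rose, 17.3% lower against 28.1% of all genes, with a median log2 fold change of −0.12 against −0.13. In the KO diet comparison 17 fell and 0 rose, 32.7% against 44.6%, with a median of −0.15 against −0.18. For the interaction 11 had a negative term that passed, 21.2% against 31.2%. Over all 18 arrays 4 of the 9 and 9 of the 17 passed. With the acinar mean as a covariate 0 of the 9 falls in the HFD genotype comparison kept their call, and 3 did so without KO HFD 18, 4 without WT HFD 7 and 2 with quantile normalization.

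The lipoxygenase and leukotriene list, of parallel routes from arachidonic acid, held the gene with the largest fall of the 5 lists in both comparisons. This was Cysltr2, a receptor gene for cysteinyl leukotrienes, whose readings lay below 7.51, the mark from the olfactory receptor genes, as did the mean of Ephx2. Cysltr2 read 5.90, 5.90 and 5.86 in KO HFD islets against 6.94, 6.40, 6.65 and 6.39 in WT HFD and 6.17 to 6.82 in KO CD islets. KO HFD 11 read 6.23. Its log2 fold change was −0.71 in the HFD genotype comparison (SE 0.16, adjusted p = 0.0056) and −0.62 in the KO diet comparison (SE 0.15, adjusted p = 0.0043). Alox8, the mouse 8-lipoxygenase gene, fell by 0.42 (SE 0.10, adjusted p = 0.0076) and Alox12, the platelet-type 12-lipoxygenase gene, by 0.34 (SE 0.091, adjusted p = 0.013) in the HFD genotype comparison. After median centring Cysltr2 in both comparisons (adjusted p = 0.023 and 0.045) and Alox8 in the HFD genotype comparison (adjusted p = 0.042) were the only 3 of 23 falls of named genes in these lists that kept a call. Gpx4, a glutathione peroxidase that reduces lipid hydroperoxides, fell by 0.43 in the KO diet comparison (SE 0.081, adjusted p = 0.0010) and Ephx2, an epoxide hydrolase gene, by 0.26 (SE 0.050, adjusted p = 0.0012), but Ephx2 read 0.54 over all 18 arrays (adjusted p = 0.36).

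Among the genes that release arachidonic acid, 3 of 17 fell in the HFD genotype comparison, where 28.1% of all genes fell. Pla2g6, a calcium-independent phospholipase A2 gene, fell by 0.28 (SE 0.071, adjusted p = 0.0086), Pla2g15, a lysosomal phospholipase gene, by 0.24 (SE 0.077, adjusted p = 0.031) and Pla2g2d, a secreted phospholipase gene, by 0.55 (SE 0.19, adjusted p = 0.041). Pla2g2d overlapped between these groups, was −0.35 (adjusted p = 0.21) without KO HFD 10 and had an adjusted p of 0.12 over all 18 arrays. The Pla2g2d call was also lost without any 1 of WT HFD 7, 9 and 16 and KO HFD 18, and that of Pla2g15 without any 1 of WT HFD 7 and KO HFD 17 and 18. In the KO diet comparison 5 of 17 fell, where 44.6% of all genes fell, led by Pla2g15 (−0.36, adjusted p = 0.0014) and Pla2g6 (−0.28, adjusted p = 0.0038). Pla2g4a, the gene of the cytosolic phospholipase A2 that feeds cyclooxygenases, did not pass in any comparison and read 6.05 to 6.90 over the 17 arrays. These readings lay below 7.51, the mark from the olfactory receptor genes, where differences can be compressed.

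Among transport and breakdown genes, Ptgr2, a prostaglandin reductase that acts after Hpgd, fell by 0.36 in the HFD genotype comparison (SE 0.12, adjusted p = 0.035) and by 0.48 in the KO diet comparison (SE 0.11, adjusted p = 0.0035). Slco2a1, the prostaglandin transporter gene, fell by 0.29 in the HFD genotype comparison (SE 0.099, adjusted p = 0.041). Of the other prostanoid synthases, Cbr1, a carbonyl reductase that can turn PGE2 into PGF2α, fell by 0.22 in the HFD genotype comparison (SE 0.076, adjusted p = 0.041), with an adjusted p of 0.94 over all 18 arrays. The calls of Ptgr2, Slco2a1 and Cbr1 in the HFD genotype comparison were each lost without WT HFD 7 (adjusted p = 0.11, 0.091 and 0.12) and without KO HFD 18 (adjusted p = 0.083, 0.066 and 0.18). These were not the only arrays whose omission lost a call. With any 1 array left out, the limma adjusted p reached 0.12 for Ptgr2 and 0.10 for Slco2a1. Hpgds, which makes PGD2, fell by 0.43 in the KO diet comparison (SE 0.12, adjusted p = 0.0076). Its mean was 8.68 in KO CD islets, against 8.30 in WT CD, 8.24 in WT HFD and 8.25 in KO HFD islets. The KO CD group thus stood apart, at 0.39 in the CD genotype comparison (limma, adjusted p = 0.15), and KO HFD islets lay near both WT groups. None of the 7 other prostanoid receptor genes passed in the HFD genotype comparison, and in the KO diet comparison Ptgfrn, which encodes a protein that binds to the PGF2α receptor, fell by 0.30 (SE 0.11, adjusted p = 0.039). Ptgfrn was dim, with a mean below 7.51, and lost its call over all 18 arrays (adjusted p = 0.28) and without any 1 of KO CD 12 and 13 and KO HFD 17 and 18.

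**Figure D4:**
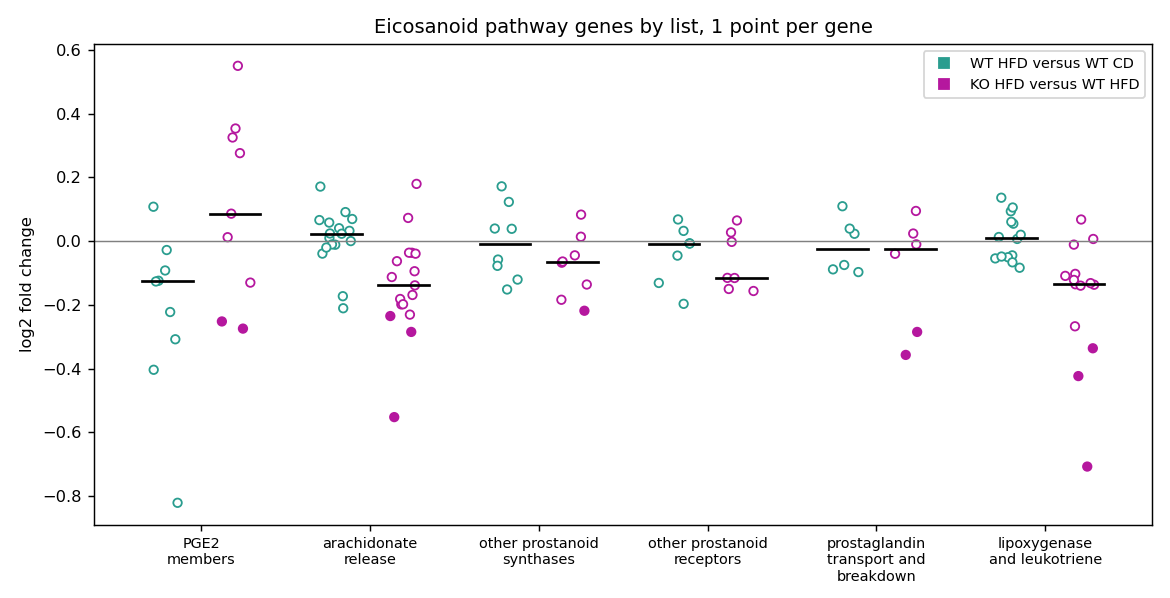
Log2 fold change of each measured gene in the PGE2 list and the 5 other lists, in the WT diet comparison (green) and the HFD genotype comparison (purple), over 17 arrays, with filled points passing an adjusted p of 0.05 and black bars at list medians. All filled points lie below 0, and the lowest, Cysltr2, is at −0.71.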

How the data were processed

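Islet RNA of 18 mice was measured on Mouse GeneChip Exon 1.0 ST arrays. Per the submitters' processing notes, RMA in Affymetrix Expression Console 1.3 gave the log2 values that were deposited, on a scale common to all arrays, and the probe intensities behind them were not used here. The gene-level table holds 23332 transcript clusters and 18 arrays. A cluster was named from the platform annotation supplied with the series: 14996 carried 1 symbol, 1019 several and 7317 none, and only the first were used. The brightest cluster stood for each of 135 genes with several, which left 14860 genes. The 18 exon-level samples were not analysed here.

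Groups come from the sample labels. A mean per group was fitted with limma 3.58.1 (R 4.3.3; lmFit, contrasts.fit, eBayes), with Benjamini-Hochberg adjustment over all 14860 genes and a threshold of 0.05. Errors are limma standard errors, and all groups share 1 estimate of the spread. KO HFD 11 was left out as the array the methods removed. It was identified by which omission made fitted fold changes match the study's printed lists, which were used for nothing else. The fit recovered planted changes when tested on simulated data. Noise there was independent between genes, and planted changes exceeded those of the called PGE2 genes. That test therefore does not bear on their calls. Correlations used deviations from group means and 100000 permutations within groups (numpy 2.4.6). Figures were drawn with matplotlib 3.10.9.

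The genes, the lists, the rule for named genes and the alternatives were chosen with earlier results of these data known. Named are the 10 genes, Gnaz, up to 4 genes per pathway list and comparison with the smallest adjusted p, and the 5 genes most like Ptger3 and Ptgs2. Pla2g4a and the intestinal genes were named after their values were seen. The alternatives were all 18 arrays, each array left out, quantile normalization, median centring, a fit of the 2 compared groups alone, array weights, eBayes with trend and robust, the mean of all clusters of a gene, dim genes dropped, islet numbers as a block, the acinar or leukocyte mean as a covariate, KO CD 13 and WT CD 14 left out, and a threshold of 0.01.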

Additional observations from a re-analysis of the deposited data

Results flagged for a closer look

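Of 36 pairs of a gene and a group tested for a single array far from the others, 4 were picked out, where chance picks about 1 in 20. Ptger3 read 9.44 in KO HFD 10, and its gap to the next KO HFD array was 0.87 of the group's range, above the critical value of 0.829 for 4 arrays. Ptgs2 read 8.18 in KO CD 13, with a gap of 0.83 of the range (critical value 0.71 for 5 arrays). Hpgd read 8.41 in WT CD 14, with a gap of 0.74, and 9.77 in KO HFD 11, with a gap of 0.88. KO CD 13 and WT CD 14 were also the 2 arrays with the highest leukocyte mean, and KO HFD 10 had the highest acinar enzyme mean.

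Ptger1 passed the test of the interaction of genotype and diet, at −0.33 on the log2 scale (limma, adjusted p = 0.013), which stands beside a median of −0.18 over all genes. The interaction was −0.092 (adjusted p = 0.48) with arrays centred on their median, −0.13 (adjusted p = 0.38) with quantile normalization and −0.45 (adjusted p = 0.14) with the acinar mean as a covariate. The log2 fold change of KO against WT islets was 0.077 on CD, which did not pass the test, and −0.25 on HFD.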

How the results depend on the processing

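Direction and call were recomputed for the 45 log2 fold changes of the 9 genes under each alternative, which gave 1326 values. Of these, 1202 kept direction and side of the threshold, 32 lost a call, 22 gained one and 70 changed sign, and 20 of the 45 kept their sign under every alternative run. The numbers of genes called refer to limma at an adjusted p of 0.05. No paired analysis was possible because the labels give no pairing of mice between groups. Counts of arrays limit all comparisons, with 3 arrays in KO HFD islets, and the RMA values carry no detection call. Where no value shows a cause, the cause was not tested.

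Scaling changed the calls in KO HFD islets. With arrays centred on their median, 1526 genes were called in the HFD genotype comparison, 4400 in the KO diet comparison and 1189 for the interaction. Of the 9 genes, 0 were called in the HFD genotype comparison and 1, Ptger4, in the KO diet comparison. Log2 fold changes changed sign in the KO diet comparison for Ptger1 (0.029), Ptgs2 (0.17), Ptges (0.15), Ptges2 (0.023), Ptges3 (0.12) and Hpgd (0.079), in the HFD genotype comparison for Ptges2 (0.039), in the CD genotype comparison for Ptges3 (−0.053) and for the interaction for Ptges (0.23), Ptges2 (0.037) and Ptges3 (0.23). Quantile normalization gave 40 genes in the CD genotype comparison, 1640 in the HFD genotype comparison and 2423 in the KO diet comparison and 1094 for the interaction. Of the 9 genes it called 0 in the HFD genotype comparison, 1 in the KO diet comparison and 0 for the interaction. The 1 call was a rise, so neither the fall of Ptger1 nor that of Ptges2 was kept. Quantile normalization turned the sign in the KO diet comparison for Ptges (0.12), Ptges2 (0.016) and Faah (0.0035). It did so in the HFD genotype comparison for Ptges2 (0.030). For the interaction it did so for Ptges (0.20), Ptges2 (0.026) and Ptges3 (0.081).

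Groups of the WT diet and HFD genotype comparisons did not overlap on the acinar enzyme mean, so covariate and group cannot be told apart there. With that mean as a covariate, 3 genes were called in the CD genotype comparison and 0 in the WT diet comparison. There were 100 in the HFD genotype comparison, 5745 in the KO diet comparison and 0 for the interaction. Of the 9 genes it called 0 in the HFD genotype comparison, 1 in the KO diet comparison and 0 for the interaction. Ptger3 turned to 0.37 in the WT diet comparison, −0.84 in the HFD genotype comparison and −0.39 in the KO diet comparison and −0.75 for the interaction. Ptger4 turned to 0.11 in the CD genotype comparison, 0.31 in the WT diet comparison, −0.21 in the HFD genotype comparison and −0.0051 in the KO diet comparison and −0.31 for the interaction. Ptges2 turned to 0.065 in the WT diet comparison, and for the interaction Ptges turned to 0.045, Ptges3 to 0.017 and Hpgd to −0.058. With the leukocyte mean as a covariate, Ptgs2 turned to 0.19 in the KO diet comparison and Ptges3 to 0.0080 for the interaction.

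Over all 18 arrays 1 of the 9 genes was called in the HFD genotype comparison and 1 in the KO diet comparison, Ptger1 in each. Hpgd turned to 0.30 and Ephx2 to 0.54 in the KO diet comparison, and Ptges to 0.034 and Ptges3 to 0.024 for the interaction. Without KO CD 13 and WT CD 14, 3 of the 9 were called for the interaction, Ptgs2 turned to 0.22 in the KO diet comparison and Ptges to 0.011 for the interaction.

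With array weights 41 genes were called in the CD genotype comparison and 439 in the WT diet comparison, where 1 of the 9, Ptger3, was among them. Ptger3 turned to −0.052 in the KO diet comparison, and Ptges to 0.064 and Ptges3 to 0.0048 for the interaction. With only the 2 groups fitted, 8 genes were called in the CD genotype comparison and 177 in the WT diet comparison, 1 of the 9 among the latter. Islet numbers 1 to 11 and 12 to 18 as a block gave 2 of the 9 for the interaction and 1 in the KO diet comparison, and with dim genes dropped 2 were called for the interaction. At an adjusted p under 0.01, 4 genes were called in the CD genotype comparison, 0 in the WT diet comparison, 1801 in the HFD genotype comparison and 4561 in the KO diet comparison and 1576 for the interaction, and of the 9 genes 0 in the HFD genotype comparison, 0 in the KO diet comparison and 0 for the interaction.

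Leaving out 1 array at a time gave 6 (without WT CD 5) to 62 (without KO CD 1) genes called in the CD genotype comparison, 0 (without any 1 of WT CD 5, 6 or 15 or WT HFD 9 or 16) to 137 (without KO HFD 10) in the WT diet comparison and 2636 (without WT HFD 7) to 4634 in the HFD genotype comparison (2895 without KO HFD 18). Of the 9 genes, 0 to 1 were called in the WT diet comparison, 1 to 3 in the HFD genotype comparison and 1 to 3 in the KO diet comparison and 1 to 3 for the interaction. Without 1 array, signs changed for Ptger2 (−0.034 to 0.085) and Ptger3 (−0.31 to 0.52) in the KO diet comparison, Ptger3 (−0.16 to 0.66) and Ptges3 (−0.020 to 0.043) in the HFD genotype comparison, Ptges2 in the WT diet comparison (−0.10 to 0.0092), Ptges3 (−0.030 to 0.075) and Ptgs2 (−0.075 to 0.37) in the CD genotype comparison, Ptgs2 in the KO diet comparison (−0.20 to 0.22), and Ptges (−0.064 to 0.068) and Ptges3 (−0.063 to 0.042) for the interaction. None of these values passed the test over the 17 arrays.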
